A study of Saccharomyces kudriavzevii and Saccharomyces cerevisiae and Kluyveromyces marxianus with 12 samples.

Results

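Yeast cells remove superoxide and peroxides with a small set of enzymes, and the data below describe the transcripts of 10 of them in *S. cerevisiae* before and after heat shock. The set is defined by gene identifier, and it holds 10 of the 6017 genes in the *S. cerevisiae* count tables. It comprises the catalases CTT1 (YGR088W) and CTA1 (YDR256C), the superoxide dismutases SOD1 (YJR104C) and SOD2 (YHR008C), the glutathione peroxidase homologs GPX1 (YKL026C), GPX2 (YBR244W) and HYR1 (YIR037W), and the peroxiredoxins TSA1 (YML028W), TSA2 (YDR453C) and PRX1 (YBL064C). All 10 passed the filter on low counts, which left 5786 genes to test.

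The series holds poly(A) RNA-seq libraries of 3 yeast species, and the 4 libraries of *S. cerevisiae* are used here. All 4 come from BY4742, a haploid laboratory strain of mating type α with the deletions ura3Δ0, leu2Δ0, his3Δ1 and lys2Δ0, which the control cells carry as well. Cells growing at 33 °C in rich medium with glucose were held for 8 minutes at 33 °C (control, 2 libraries) or at 40 °C (heat shock, 2 libraries). The comparison asks how transcript levels differ between growth at 33 °C and a short heat shock at 40 °C. The replicates are labelled as biological, and nothing more is said of how their cultures were separated, so p-values measure only the spread between these libraries. As background, BY4742 descends from S288C, whose HAP1 gene, encoding a heme-responsive activator of genes such as CTT1, is interrupted by a transposon.

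Superoxide, which forms when electrons leak to oxygen, is converted by superoxide dismutases to hydrogen peroxide. Catalases split hydrogen peroxide to water and oxygen without any other substrate, whereas peroxiredoxins and glutathione peroxidase homologs reduce peroxides with electrons that reach them from NADPH through thioredoxin or glutathione. In *S. cerevisiae* many of these genes are known targets of Yap1 and Skn7, which respond to peroxide, or of Msn2 and Msn4, which respond to many stresses including heat.

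Library depth on genes lay between 18911098 and 23476002 counts, and reads assigned to no gene made up between 5.91% and 6.60% of all reads. URA3, LEU2 and LYS2 had 0 counts in all 4 libraries, while HIS3, of which his3Δ1 removes only a part, had between 1633 and 3494. The α-factor gene MF(ALPHA)1 had 35694 and 42770 counts in the controls and 2296 and 1519 after heat shock. STE3, the other marker of α cells, had 6098 and 7557 counts in the controls and 922 and 620 after heat shock. The a-factor gene MFA1 had 30 and 44 counts in the controls and 75 and 53 after heat shock. STE2, the other marker of a cells, had 199 and 207 and then 473 and 345. Both markers of α cells were thus lower after heat shock, and both markers of a cells were higher. All 10 genes have a single coding exon, none overlaps another coding sequence, and 0.00% of the windows of 50 bases in any of them occur elsewhere in the R64 genome, TSA1 and TSA2 included. A stretch of that length therefore points to a single gene, also among the paralogs.

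Heat shock raised 7 of the 10 genes and lowered 1, GPX2, while CTA1 and TSA1 did not pass the test. Levels in single genes are given as CPM, which are counts relative to library size after scaling by TMM. The gene with the largest rise among the 10 was CTT1, at 22.6-fold, followed by TSA2, GPX1, PRX1, SOD2, HYR1 and SOD1. Of all genes tested, 33.7% were called higher, 32.7% lower and 66.4% in either direction (edgeR's quasi-likelihood test at a Benjamini-Hochberg adjusted p under 0.05), so calls were common in this comparison. The median log2 fold change of the 10 genes was 1.37 (SD 0.233 over the 4 ways to pair 1 control with 1 heat shock library, which reuse libraries), against 0.03 for all genes tested. The libraries of the conditions did not overlap for 9 of the 10 genes, and for 85.4% of all genes tested. The libraries measure bulk culture, so a change in every cell and a change in some of the cells cannot be told apart.

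**Figure D1:**
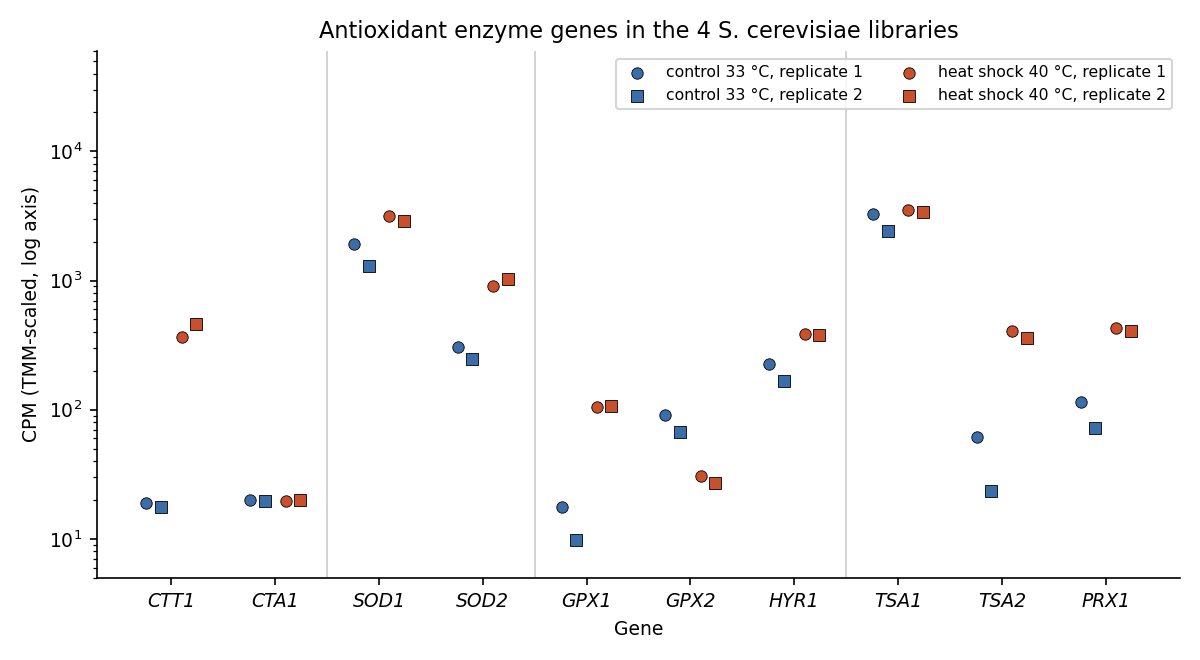
Level of each of the 10 genes in each library, in CPM scaled by TMM on a log axis, with control libraries at 33 °C in blue, heat shock libraries at 40 °C in red, circles for replicate 1 and squares for replicate 2. CTT1 went from 19.0 and 17.8 CPM to 368 and 464 CPM, CTA1 stayed between 19.5 and 20.1 CPM in all 4 libraries, and GPX2 alone among the 10 was lower in both heat shock libraries than in both controls.

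The bases before the start codons are described here because the fold changes of the 10 genes ranged from the rise of CTT1 to the fall of GPX2. The 600 bases before each start codon were searched on both strands for the stress response element bound by Msn2 and Msn4 (AGGGG), the Yap1 site (TTACTAA) and the heat shock element bound by Hsf1 in a form of 2 units (GAANNTTC) or of 3 such alternating units. At least 1 stress response element was found for 8 of the 10 genes, against 39.7% of the 5992 genes with a window of this length, and at least 2 were found for CTT1, GPX1, TSA1 and TSA2, against 10.7%. The Yap1 site was found for 5 genes (CTA1, SOD1, SOD2, GPX2 and TSA2), against 13.7%. The heat shock element of 2 units in the form GAANNTTC was found for 0 of the 10 genes, against 22.8%. That of 3 units was also found for 0, against 1.70%. The other order of 2 units (TTCNNGAA) and elements with other spacing or with mismatches were not searched. HYR1, which rose, held none of these matches, and TSA1, which did not pass the test, held 2 stress response elements, of which the one farther from the start lies within the coding sequence of USA1. A match in these letters is a description of the sequence and does not show binding.

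**Figure D2:**
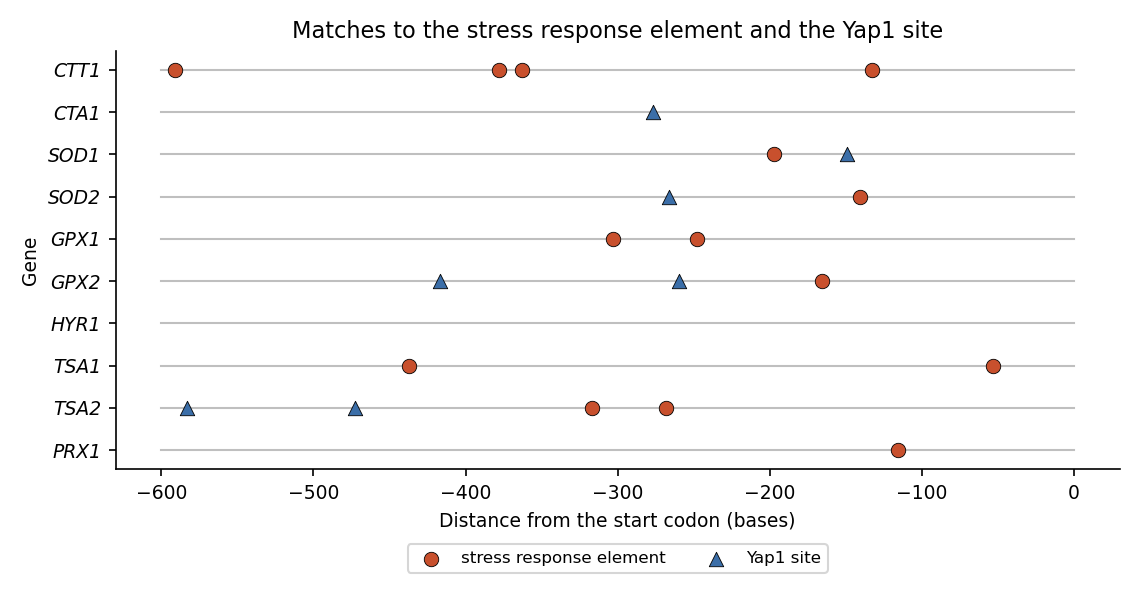
Matches to the stress response element (red circles) and the Yap1 site (blue triangles) in the 600 bases before the start codon of each of the 10 genes, by distance of the first matching base from the start codon. CTT1 held 4 stress response elements, at 591, 378, 363 and 133 bases, TSA2 held 2 of each kind of site, and HYR1 held neither.

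The matches of the gene with the largest rise (CTT1), of the genes with the next largest rises (TSA2 and GPX1) and of the gene that fell (GPX2) follow in the direction of each gene, read from the R64 genome, with the matching letters in capitals and 8 flanking bases on each side. CCCCT is the stress response element on the opposite strand, and TTAGTAA the Yap1 site on the opposite strand.
CTT1, 591 bases before the start (chrVII:654035-654055): tgaagattAGGGGttgcaagt
CTT1, 378 bases before the start (chrVII:654248-654268): ctttttcaAGGGGatcaccgg
CTT1, 363 bases before the start (chrVII:654263-654283): caccggtaAGGGGccaagcgg
CTT1, 133 bases before the start (chrVII:654493-654513): tatcgtatCCCCTactgctac
GPX1, 303 bases before the start (chrXI:390174-390194): attagtatCCCCTtgacatac
GPX1, 248 bases before the start (chrXI:390119-390139): tttgctttCCCCTtctgttcc
TSA2, 317 bases before the start (chrIV:1365967-1365987): tatatgcgCCCCTctagttta
TSA2, 268 bases before the start (chrIV:1365918-1365938): gctgatccCCCCTtacaattg
TSA2, 583 bases before the start (chrIV:1366231-1366253): tatagacaTTACTAAgtatgtac
TSA2, 473 bases before the start (chrIV:1366121-1366143): tttttttgTTAGTAAgcgctacg
GPX2, 166 bases before the start (chrII:707354-707374): gtgcaaagCCCCTaagccagc
GPX2, 417 bases before the start (chrII:707103-707125): gacgttacTTACTAAatgtacga
GPX2, 260 bases before the start (chrII:707260-707282): ctagacaaTTAGTAAttccgatg
GPX2, the gene that fell, thus held 2 Yap1 sites and 1 stress response element, and TSA2, which rose, held 2 of each.

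Of the catalases, CTT1 rose 22.6-fold and CTA1 did not pass the test. CTT1 encodes the cytosolic catalase T and lies on the plus strand of chromosome VII of R64 from 654634 to 656322. It had 19.0 and 17.8 CPM in control replicates 1 and 2 and 368 and 464 CPM in heat shock replicates 1 and 2, so that the conditions were far apart compared with their replicates. Its log2 fold change was 4.50 (standard error, SE, 0.148, edgeR, Benjamini-Hochberg adjusted p = 3.96e-06), which ranked 22 from the top among all 5786 genes tested. CTT1 also held the most stress response elements of the 10 genes, as printed above. CTA1 encodes catalase A, which is found in peroxisomes and mitochondria, and lies on the minus strand of chromosome IV from 968133 to 969680. It had 19.9 and 19.8 CPM at 33 °C and 19.5 and 20.1 CPM at 40 °C, and each of the 4 single pairs of libraries gave a ratio between 0.983 and 1.02. Its log2 fold change was 0.00 (SE 0.102, edgeR, adjusted p = 0.991). The proteins of the catalase genes are 46.0% identical over 489 aligned residues.

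In TPM, the authors' length-normalized unit in which genes can be set side by side, CTT1 gave 46.8% and 45.1% of the catalase transcripts at 33 °C and 94.5% and 95.5% at 40 °C, a difference of 49.1 percentage points. Summed catalase TPM went from 16.9 and 17.2 to 199 and 246, so even after heat shock the catalase transcripts stayed far below those of the superoxide dismutases and peroxiredoxins. Shares within a class were compared with a two-sided exact permutation test over the 4 libraries, which gave p = 0.333 for each of the 10 shares, the smallest value that 2 libraries against 2 allow.

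**Figure D3:**
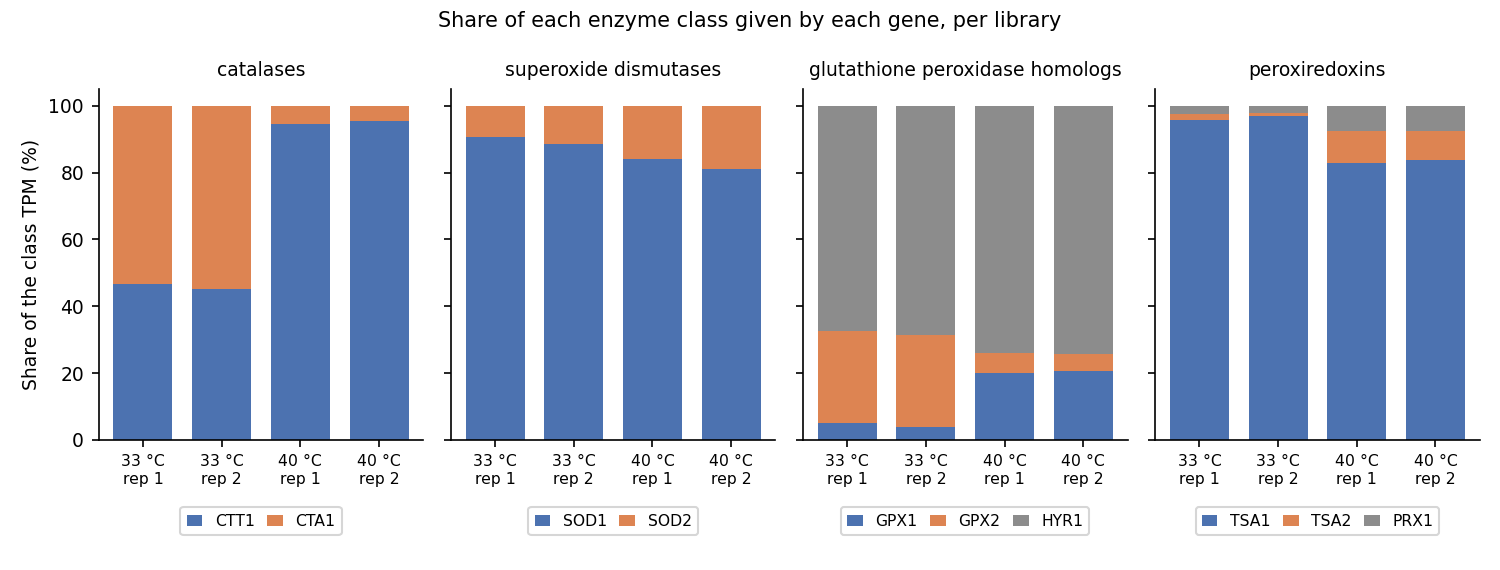
Share of each gene in the summed TPM of its enzyme class, counting only genes of the set, as stacked bars in percent for the 4 libraries. CTT1 took 46.8% and 45.1% of catalase TPM at 33 °C and 94.5% and 95.5% at 40 °C. TSA1 took 95.7% and 96.9% and then 82.7% and 83.7% of the summed TPM of TSA1, TSA2 and PRX1.

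Both superoxide dismutase genes rose, SOD2 3.49-fold and SOD1 1.89-fold. SOD1 encodes the copper and zinc enzyme of the cytosol and the space between the mitochondrial membranes, and lies on the minus strand of chromosome X from 622550 to 623014. It had 1926 and 1287 CPM at 33 °C and 3176 and 2907 CPM at 40 °C (log2 fold change 0.92, SE 0.194, edgeR, adjusted p = 0.0052). SOD2, the manganese enzyme of the mitochondrial matrix, lies on the minus strand of chromosome VIII from 122889 to 123590. It had 306 and 248 CPM at 33 °C and 900 and 1030 CPM at 40 °C (log2 fold change 1.80, SE 0.138, edgeR, adjusted p = 4.54e-05). In both genes the control libraries differed more from each other than the heat shock libraries did on the log scale, yet neither gene showed an overlap between conditions. SOD2 gave 9.51% and 11.3% of superoxide dismutase TPM at 33 °C and 15.8% and 19.0% at 40 °C, so SOD1 remained the larger part. The proteins, which are unrelated in fold, matched at 24.0% of 121 aligned residues. CCS1, which encodes the copper chaperone that activates Sod1, went the other way, from 296 and 266 CPM to 147 and 138 CPM (log2 fold change -0.98, edgeR, adjusted p = 0.00013).

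The glutathione peroxidase homologs gave 3 different responses: GPX1 rose 7.82-fold, HYR1 rose 1.93-fold and GPX2 fell. These proteins resemble animal glutathione peroxidases and reduce lipid and other hydroperoxides, and Hyr1, also called Gpx3, is in addition the sensor that passes the peroxide signal to Yap1. GPX1, on the minus strand of chromosome XI from 389380 to 389883, had 17.6 and 9.76 CPM at 33 °C and 106 and 107 CPM at 40 °C. Its log2 fold change was 2.97 (SE 0.259, edgeR, adjusted p = 8.06e-05), and the single pairs of libraries gave ratios between 6.02 and 11.0. HYR1, on the plus strand of chromosome IX from 423128 to 423619, had 227 and 168 CPM and then 384 and 378 CPM (log2 fold change 0.95, SE 0.146, edgeR, adjusted p = 0.00123). GPX2, on the plus strand of chromosome II from 707528 to 708016, had 91.3 and 67.0 CPM at 33 °C and 30.8 and 27.2 CPM at 40 °C. It fell by 1.45 on the log2 scale with a standard error of 0.170 (edgeR, adjusted p = 0.000332), and every single pair of libraries gave a ratio between 0.298 and 0.460.

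HYR1 was the largest part of this family in all 4 libraries. It gave 67.6% and 68.6% of the TPM of the family at 33 °C and 74.1% and 74.2% at 40 °C. GPX2 went from 27.3% and 27.5% to 5.99% and 5.37%, and GPX1 from 5.11% and 3.89% to 19.9% and 20.5%, so that these genes changed places in the order of levels. GPX2 and HYR1, which moved in opposite directions, are the closest pair of the family in protein sequence, with 74.5% identity over 161 residues, against 59.5% for GPX1 with HYR1 and 55.9% for GPX1 with GPX2.

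Among the peroxiredoxins, TSA2 and PRX1 rose and TSA1, the most abundant of the 10 transcripts at 33 °C, did not pass the test. Tsa1 is the main cytosolic thioredoxin peroxidase, and also acts as a chaperone when its catalytic cysteine is overoxidized. TSA1, on the plus strand of chromosome XIII from 220138 to 220728, had 3248 and 2396 CPM at 33 °C and 3517 and 3418 CPM at 40 °C. The conditions did not overlap, but the gap was small beside the difference between the controls, and the log2 fold change was 0.30 (SE 0.160, edgeR, adjusted p = 0.141). Without control replicate 1 it was 0.51 and passed the test (edgeR, adjusted p = 0.0199), and the adjusted p ranged from 0.0199 to 0.571 over the alternatives with a test. Tsa2, its cytosolic paralog, is identical to Tsa1 at 85.7% of 196 residues. TSA2, on the minus strand of chromosome IV from 1365072 to 1365662, had 61.7 and 23.4 CPM at 33 °C and 410 and 358 CPM at 40 °C (log2 fold change 3.18, SE 0.408, edgeR, adjusted p = 0.000507). The standard error is the largest among the 10 genes, and leaving out control replicate 1 gave 4.01 on the log2 scale where leaving out control replicate 2 gave 2.64. PRX1 encodes the mitochondrial peroxiredoxin, whose protein is identical to that of TSA1 at 31.4% of 191 aligned residues, and lies on the minus strand of chromosome II from 100371 to 101156. It had 114 and 71.96 CPM at 33 °C and 431 and 408 CPM at 40 °C (log2 fold change 2.17, SE 0.208, edgeR, adjusted p = 0.000123).

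Among TSA1, TSA2 and PRX1, TSA1 had the highest level in all 4 libraries. Its share of the summed TPM of these genes went from 95.7% and 96.9% to 82.7% and 83.7%. That of TSA2 went from 1.82% and 0.947% to 9.64% and 8.78%, and that of PRX1 from 2.53% and 2.19% to 7.62% and 7.51%. AHP1 and DOT5, peroxiredoxin genes outside this set, were not counted in these shares. AHP1, given below, had a higher mean TPM than TSA1 in both conditions. Mean TSA1 TPM was 66.8 times that of TSA2 at 33 °C and 9.02 times after heat shock. The control value rests on replicates that differed widely, with 52.6 times in control replicate 1 and 102 times in control replicate 2.

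**Figure D4:**
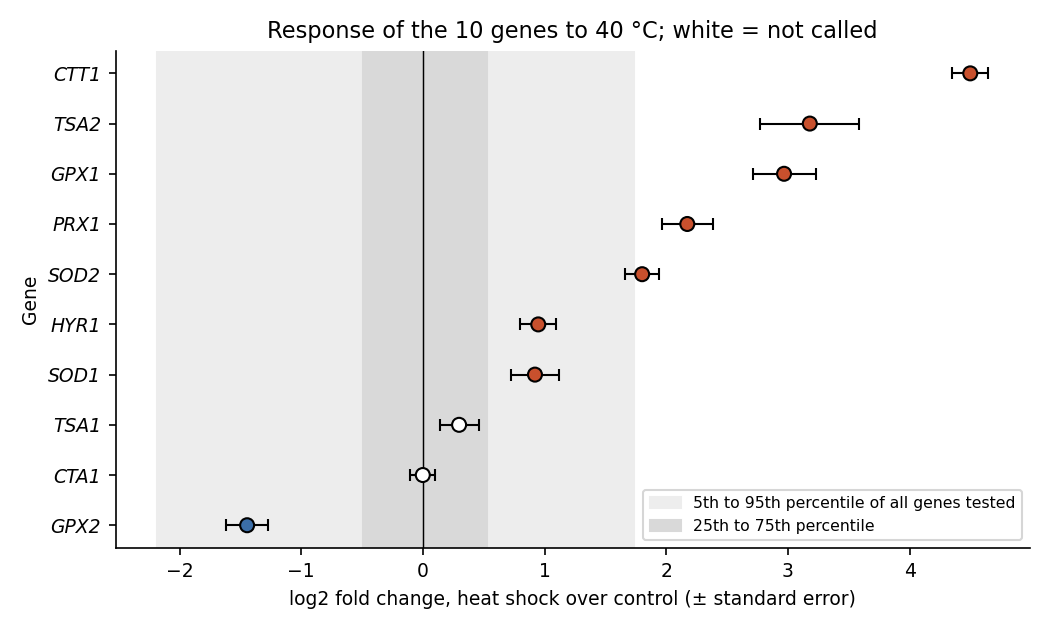
Log2 fold change of heat shock over control for the 10 genes from edgeR, with bars for the standard error, red for genes called higher, blue for lower and white for not called, over grey bands that hold the middle of all genes tested. CTT1 (4.50), TSA2 (3.18), GPX1 (2.97), PRX1 (2.17) and SOD2 (1.80) lie above the 95th percentile of 1.73, and GPX2 (-1.45) lies within the band.

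Set in order of mean TPM in the control libraries, the genes ran from TSA1 (3427) and SOD1 (2476) through HYR1 (288), SOD2 (283), GPX2 (116), PRX1 (84.8), TSA2 (51.3) and GPX1 (19.4) to CTA1 (9.24) and CTT1 (7.85). Neighbours whose control libraries overlapped were HYR1 with SOD2, GPX2 with PRX1, and PRX1 with TSA2. After heat shock the order was SOD1 (5616), TSA1 (5037), SOD2 (1179), HYR1 (665), TSA2 (558), PRX1 (458), CTT1 (211), GPX1 (181), GPX2 (51.0) and CTA1 (11.0), and no neighbours overlapped. CTT1, the last of the 10 before heat shock, passed GPX1, GPX2 and CTA1, and among 5970 genes it went from place 4991 to place 679. The 10 genes together held 0.676% of all TPM in the control libraries on average and 1.40% at 40 °C, mostly from SOD1 and TSA1. TPM gave larger ratios than CPM throughout, since the median of all genes tested moved by 0.26 on the log2 scale in TPM and by 0.03 in CPM.

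In the control libraries the CPM of all 10 genes was higher in replicate 1 than in replicate 2. The ratios ran from 1.00 (CTA1) and 1.07 (CTT1) up to 2.63 (TSA2), with a median of 1.36. CTA1 was nearly equal in CPM, and in TPM its control replicate 2 was the higher, with 9.01 and 9.46 in replicates 1 and 2. Over all genes tested, replicate 1 was higher for 50.7% of genes with a median ratio of 1.00, and 29 of the 5786 genes had a ratio of at least that of TSA2. In the heat shock libraries replicate 1 was higher for 6 of the 10 genes, with a median ratio of 1.02. On the log scale the control replicates differed more from each other than the heat shock replicates did for 8 of the 10 genes, and less for CTT1 and CTA1. This count was not made over all genes. Pooled over all genes, the departure from counting error was also larger in the controls (chi-square per degree of freedom 43.8) than after heat shock (24.1).

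The enzymes depend on partners, and 60 further genes in 6 lists were counted in the same fit. Of these, 30 (50%) were higher and 10 (16.7%) lower after heat shock, against 33.7% and 32.7% of all genes tested, with a median log2 fold change of 0.34. The lists were chosen by function, with results of these data known, so their counts describe only these genes.

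**Figure D5:**
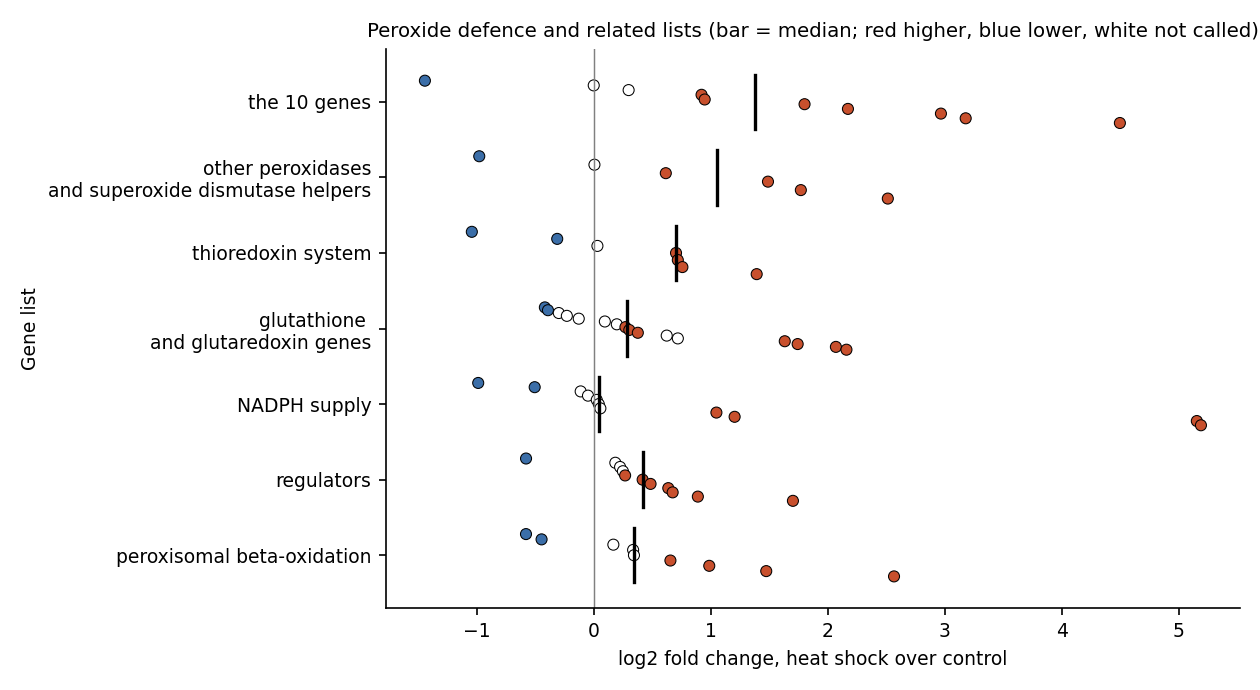
Log2 fold change of heat shock over control for the 10 genes and for each gene of 6 related lists, with red for genes called higher, blue for lower, white for not called and a black bar for the list's median. The medians ran from 0.04 for NADPH supply to 1.37 for the 10 genes, and GND2 and SOL4 lie above 5 in the list of NADPH supply.

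Among 6 other peroxidases and helpers of superoxide dismutases, 4 (66.7%) were higher and 1 (16.7%), CCS1, was lower (median log2 fold change 1.05). Beside this and each list below stand the shares over all genes tested, 33.7% higher and 32.7% lower. SRX1, the sulfiredoxin that restores overoxidized Tsa1, had 12.8 and 4.63 CPM at 33 °C and 55.0 and 42.6 CPM at 40 °C, which is 2.51 on the log2 scale (edgeR, adjusted p = 0.00119). Leaving out control replicate 1 gave 3.37, and leaving out control replicate 2 gave 1.93. AHP1, a cytosolic peroxiredoxin for alkyl hydroperoxides, went from 4346 and 2666 to 12256 and 11654 CPM (log2 fold change 1.77, edgeR, adjusted p = 0.00055). Its mean TPM stood above that of TSA1 in both conditions, with 4727 against 3427 at 33 °C and 19331.5 against 5037 at 40 °C. Of 7 genes of the thioredoxin system, which supplies the peroxiredoxins with electrons, 4 (57.1%) were higher and 2 (28.6%) lower (median 0.70). The share lower was close to that of all genes tested. TRX3, the mitochondrial thioredoxin, rose by 1.39 and MXR2, a methionine sulfoxide reductase of mitochondria, by 0.76 on the log2 scale. TRX1, a cytosolic thioredoxin, went from 462 and 388 to 205 and 207 CPM (log2 fold change -1.04, edgeR, adjusted p = 0.0002), and MXR1, the cytosolic methionine sulfoxide reductase, had a log2 fold change of -0.31. When heat shock replicate 1 was left out, 1 gene of the thioredoxin list was called higher and 1 lower, and 1 was also the number lower with library totals, without control replicate 1 and without heat shock replicate 2.

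Of 16 glutathione and glutaredoxin genes, 7 (43.8%) were higher and 2 (12.5%) lower, against 33.7% and 32.7% of all genes tested (median log2 fold change 0.29). The glutaredoxins GRX1 (2.16) and GRX2 (2.07) had the largest log2 fold changes of this list, and the value of GRX2 is uncertain because its coding sequence overlaps YDR512C and strand was not used in the counting. GRX3 (-0.42) and GRX4 (-0.39), glutaredoxins of iron regulation, were the genes called lower. Without heat shock replicate 1, 4 genes of this list were called higher and 0 lower, and without heat shock replicate 2 the number lower was 1.

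NADPH supply, from which both electron routes draw, held the largest rises of these lists. GND2, the minor isoform of 6-phosphogluconate dehydrogenase, went from 17.9 and 9.72 to 506 and 496 CPM, which is 5.19 on the log2 scale (SE 0.275, edgeR, adjusted p = 9.16e-06). SOL4, the minor isoform of 6-phosphogluconolactonase, went from 40.5 and 19.1 to 1007 and 1113 CPM, which is 5.16 on the log2 scale (SE 0.354, edgeR, adjusted p = 2.78e-05), with 5.76 when control replicate 1 was left out and 4.71 when control replicate 2 was. Their main isoforms did not pass the test, with log2 fold changes of -0.11 for GND1 and 0.04 for SOL3. ALD6, the cytosolic aldehyde dehydrogenase that makes NADPH, fell by 0.99 and the transketolase TKL1 by 0.51 on the log2 scale. In all, 4 of the 11 genes (36.4%) were higher, close to the share over all genes tested, and 2 were lower, with a median of 0.04.

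Of 11 listed regulators, 7 (63.6%) were higher and 1 (9.09%) lower, against 33.7% and 32.7% of all genes tested (median log2 fold change 0.42). Alternative fits that kept all 4 libraries called between 6 and 9 of these regulators higher. HAP1 (0.27), the gene interrupted by a transposon in S288C, is among the 7, and it was not called with DESeq2 (adjusted p = 0.0618). YAP1 went from 134 and 122 to 205 and 203 CPM (log2 fold change 0.67, edgeR, adjusted p = 0.00056) and HSF1 from 104 and 99.2 to 186 and 190 CPM (0.89). SKN7 was the gene called lower, from 108 and 127 to 79.5 and 77.4 CPM (-0.58). MSN2 (0.18) and MSN4 (0.22), known to be controlled mostly through their location in the cell, did not pass the test. The largest log2 fold change of this list was that of ADR1 (1.70), an activator of peroxisomal genes. The last list holds 9 genes of peroxisomal β-oxidation and related peroxisomal functions, the setting in which CTA1 is known to be induced. Of these 9, 4 (44.4%) were higher and 2 (22.2%) lower (median 0.34). CIT2, the peroxisomal citrate synthase, rose by 2.57 and SPS19, an auxiliary enzyme of β-oxidation, by 1.47 on the log2 scale, while PEX11 (-0.58), a protein of peroxisome division, and DCI1 (-0.45), an isomerase related to ECI1, were lower. POX1 and POT1, which catalyse the first and the last step of β-oxidation, stayed between 8.87 and 13.8 CPM in all libraries and did not pass the test. Leaving out either heat shock library left 1 gene of this list called lower.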

How the data were processed

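Poly(A) RNA of 4 *S. cerevisiae* libraries was analysed. The authors trimmed reads with Trim Galore 0.6.10, aligned them with STAR 2.7.10b to R64 and counted them on coding sequences with HTSeq 2.0.2 without using strand. They deposited counts per gene without normalization, and TPM values of all libraries in a single column, which was treated as a score. The 5 HTSeq tallies were left out of library sizes. The libraries of the other species were not used here.

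The fit used edgeR 4.0.16 in R 4.3.3 with TMM, filterByExpr and default quasi-likelihood settings, and adjusted p-values by Benjamini-Hochberg over 5786 genes. CPM are counts relative to library size after TMM. The standard error is the log2 fold change divided by the square root of F. DESeq2 1.42.0, RLE factors, library totals, no filter, a replicate block and leaving out each library were tried. Fits were also run on simulated counts with few changed genes, a common dispersion and no link between same-numbered libraries. That setting differs from these data, so the run does not test the calls given here. Coordinates, motifs (600 bases) and translated proteins come from the R64 RefSeq genome, and proteins were aligned with Biopython 1.88 (BLOSUM62). Of 6017 identifiers, 6014 were found in its annotation.

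The 10 genes are defined by a rule that uses no measured value, but that rule and the lists were chosen with earlier results of these data known. Named were the 10 genes, the 2 largest rises and falls called without overlap in each list, genes called against most of their list, and YAP1, SKN7, MSN2, MSN4 and HSF1. GND1, SOL3, POX1, POT1 and, among the regulators, HAP1 were named after their values were seen.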

Additional observations from a re-analysis of the deposited data

How the results depend on the processing

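With each alternative fit, 7 or 8 of the 10 genes were called higher and 1 lower, and the 8 calls reported above kept their direction and side of the threshold in every one of them. The median log2 fold change of the 10 genes was 1.63 with the log2 ratio of mean TPM (pseudocount 1) and ranged from 1.20 to 1.57 with each library left out. The difference in the CTT1 share of catalase transcripts was 47.3 percentage points with counts not corrected for length, and between 48.2 and 49.9 points with each library left out. Over all genes, the number called higher ranged from 1379 to 1961 and the number lower from 1426 to 2007 with each library left out. DESeq2 called 1733 higher and 1869 lower. The replicate number marks no stated shared culture or day. Same-numbered libraries deviated together (correlation 0.567 over genes), which with 2 numbers is only a hint. With the replicate block, 2210 genes were higher and 2092 lower, 8 of the 10 genes were higher, TSA1 was called at 0.31 on the log2 scale (edgeR, adjusted p = 0.0462), the glutathione list held 4 lower genes, and MSN4, POX1 and POT1 passed the test (edgeR, adjusted p = 0.0302, 0.0324 and 0.0273). That fit has 1 residual degree of freedom and an infinite prior, so its p-values use a spread taken from all genes in place of each gene's own. The main fit has 2 residual degrees of freedom and a prior of 4.65. Its p-values and standard errors thus also draw more on the spread of all genes than on each gene's own. Leaving out a library leaves 1 library in an arm, which is then assumed to vary like the other arm. Pooled over all genes, replicates differed by more than counting error (chi-square per degree of freedom 43.8 in the controls and 24.1 after heat shock). These pooled values do not tell whether depth limits single genes with few counts, such as CTA1.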

Other observations

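Some genes outside the lists differed between the numbered libraries in both conditions, and they are named here after their values were seen. FIT2 and FIT3, cell wall proteins induced when iron is scarce, had 1540 and 402 CPM and 2691 and 718 CPM in control replicates 1 and 2, and 1676 and 567 CPM and 1872 and 644 CPM in heat shock replicates 1 and 2. The siderophore transporter ARN2 had 258 and 99.2 CPM in the controls and 92.2 and 38.2 CPM after heat shock. DAN1, a cell wall protein made in the absence of oxygen, had 135 and 39.3 CPM and then 62.1 and 23.1 CPM. TSA2 stood close to these genes in the ratio of the control replicates (2.63), and so did the heat shock gene HSP26, with 499 and 188 CPM in the controls, but HSP26 had 21473 and 21128 CPM after heat shock, without such a gap. Replicate 1 was thus the higher one in both conditions for FIT2, FIT3, ARN2 and DAN1, while the TSA2 ratio was 1.14 after heat shock. Of the 60 further listed genes, 45 were higher in control replicate 1.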
